A study of Mus musculus with 96 samples.

Results

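The mouse metallothionein genes Mt1, Mt2, Mt3 and Mt4 were followed through 96 single horizontal basal cells (HBCs), the daughter cells of 48 divisions. The 4 genes were chosen by symbol from the 55487 genes of the deposited count table, with earlier results from the same cells known, and 3 of them (Mt1, Mt2 and Mt3) were among the 14463 genes that reached 10 counts in at least 10% of the cells. Their levels are therefore given as a description, without a test.

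HBCs are the reserve stem cells of the olfactory epithelium (OE), and the study asked whether the daughters of one division start different programmes of transcription. All cells formed 1 group. They came from wild-type mice of 6 to 8 weeks, both sexes being used, whose OE was dissected 2 days after an injection of methimazole, a drug that injures the epithelium and spares the HBCs. The HBCs were grown as primary cultures on Tropoelastin and then moved to Fibronectin, and after a division both daughters were picked by mouth pipette and sequenced from full-length cDNA, with ERCC spike-in RNA added to each lysate. There is thus no second condition to compare, the cells had left the epithelium, and the labels name neither the mouse nor the culture of a pair. The 96 cells were therefore treated as 1 sample, no p-value is given, and the daughters of a pair are never counted as independent replicates. The deposited sample names also place the cells in 12 numbered sets of 8 cells, each holding 4 whole pairs. What a set stands for is not stated in the sources used here.

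Metallothioneins are small proteins rich in cysteine that bind zinc and copper. They buffer these metals in the cell and take up reactive oxygen species. Transcription of Mt1 and Mt2 is known to be raised by zinc through MTF1, a factor that binds metal response elements (MREs) in their promoters, and by glucocorticoids. Mt1 and Mt2 are used by most tissues. Mt3 was first described as a growth inhibitory factor of the brain, and Mt4 belongs to stratified squamous epithelium.

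The 4 genes lie side by side on the forward strand of chromosome 8 (GRCm38) within 43.1 kb, in the order Mt4 (chr8:94137197-94139031, ENSMUSG00000031757), Mt3 (chr8:94152607-94154146, ENSMUSG00000031760), Mt2 (chr8:94172664-94173568, ENSMUSG00000031762) and Mt1 (chr8:94179082-94180327, ENSMUSG00000031765). Each has 3 exons in its first annotated transcript. Because Mt1 and Mt2 moved together over the cells and Mt3 did so less closely, the stretches in front of the genes are given here. For each gene the 250 bases before the RefSeq start are given on the forward strand (RefSeq, GRCm38.p6), chr8:94178839-94179088 for Mt1, chr8:94172368-94172617 for Mt2, chr8:94152357-94152606 for Mt3 and chr8:94136954-94137203 for Mt4. Capitals mark matches to the MRE core, searched on both strands as TGCACNC and TGCGCNC.
Mt1 upstream: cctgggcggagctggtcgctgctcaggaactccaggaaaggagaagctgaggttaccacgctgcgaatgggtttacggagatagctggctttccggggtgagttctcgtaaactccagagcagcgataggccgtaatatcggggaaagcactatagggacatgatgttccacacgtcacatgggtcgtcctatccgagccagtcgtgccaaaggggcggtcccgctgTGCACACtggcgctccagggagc
Mt2 upstream: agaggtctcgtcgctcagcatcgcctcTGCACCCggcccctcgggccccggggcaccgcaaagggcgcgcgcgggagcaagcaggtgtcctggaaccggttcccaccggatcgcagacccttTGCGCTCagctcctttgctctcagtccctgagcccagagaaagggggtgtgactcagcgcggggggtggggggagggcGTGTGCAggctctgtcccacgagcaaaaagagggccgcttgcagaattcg
Mt3 upstream: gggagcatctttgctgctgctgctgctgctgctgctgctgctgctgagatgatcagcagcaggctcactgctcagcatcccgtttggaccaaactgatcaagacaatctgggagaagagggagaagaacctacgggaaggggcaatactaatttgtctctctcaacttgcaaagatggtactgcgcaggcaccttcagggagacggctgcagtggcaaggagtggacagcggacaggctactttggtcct
Mt4 upstream: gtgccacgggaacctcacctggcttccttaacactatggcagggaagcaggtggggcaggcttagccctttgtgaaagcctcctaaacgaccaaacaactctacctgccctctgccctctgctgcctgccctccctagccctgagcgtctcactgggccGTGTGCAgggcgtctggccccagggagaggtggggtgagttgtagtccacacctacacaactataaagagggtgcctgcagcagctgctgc
The Mt2 stretch held 3 such matches, those of Mt1 and Mt4 held 1 each and that of Mt3 held 0. Among all 32851 RefSeq windows of this length, 21.4% held at least 1 match and 1.26% held 3 or more. The core of the antioxidant response element, bound by NRF2 and searched as TGACNNNGC on both strands, occurred 1 time in the Mt2 stretch and in 10.2% of all windows. A match is only a run of letters, and no binding was measured here.

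For Mt1, Mt2 and Mt3 the first annotated start lies in front of the letters TATAAA, and the last annotated start lies after them. Counted from the first start, their proximal promoter letters fall inside the annotated first exon. The RefSeq start used for the upstream stretches of these genes also lies in front of TATAAA. Before TATAAA this exon held 4 matches in Mt1, 3 in Mt2 and 3 in Mt3. Together with the upstream stretches this gave 5 matches for Mt1, 6 for Mt2, 3 for Mt3 and 1 for Mt4. These totals come from stretches of unlike length, the shortest being that of Mt4. For Mt2 the bases between the upstream stretch and the annotated exon were not searched. No share over all genes was computed for the first-exon matches or the totals. The first-exon matches are printed with 7 bases on either side, on the forward strand and with the match in capitals. In Mt4 TATAAA lies inside the upstream stretch printed above, after its match, so this search of the first exon did not apply to Mt4.
Mt1, 119 bases before TATAAA: ggagctcTGCACTCcgcccga
Mt1, 101 bases before TATAAA: cgaaaagTGCGCTCggctctg
Mt1, 37 bases before TATAAA: gcctgctGGGTGCAaaccctt
Mt1, 23 bases before TATAAA: aacccttTGCGCCCggactcg
Mt2, 77 bases before TATAAA: aaagggcGTGTGCAggcggcg
Mt2, 58 bases before TATAAA: cgggggcGCGTGCAtggtgcc
Mt2, 24 bases before TATAAA: gagctttTGCGCTCgacccaa
Mt3, 79 bases before TATAAA: acagcagTGCACACacacgga
Mt3, 52 bases before TATAAA: gcgctgtGCGTGCAtaggggc
Mt3, 20 bases before TATAAA: cgctgctTGCGCGCccccgcc
For the nearest match to TATAAA, the distance was 23 bases in Mt1, 24 bases in Mt2 and 20 bases in Mt3.

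Before the levels, 2 features of the data need to be stated. First, the Mt2 count cannot be told apart from that of an antisense gene. Gm45774 (ENSMUSG00000110588, chr8:94170748-94173412, reverse strand) covers 355 of the 511 exonic bases of Mt2 (69.5%), and the libraries do not mark the strand. Over the 96 cells Mt2 and Gm45774 had a Spearman rho of 0.98, and Gm45774 had 2.30 times the counts of Mt2 in the median cell (0.731 to 3.34 times over the cells). Of the 31-base words in Mt2 transcripts 58.1% also occurred in another gene, nearly all in Gm45774, whereas Mt1, Mt3 and Mt4 shared 0 such words with any other annotated gene. Second, the daughters of pair 4 stood apart, cells being named here by their pair and daughter number. Cell 4-2 had 458 normalized counts of Krt14 and 4481 of Krt5, keratins of basal cells, against medians of 127894 and 99415, and its sister had 233477 of Sprr1a, a gene of squamous differentiation, against a median of 1308. The main values are therefore also given without this pair, those between sisters included.

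The cells carried the HBC markers and few others. Trp63, Krt5 and Krt14 were counted in 96 of 96 cells, whereas Sox10, Kit and Cyp1a2 were at 0 in all of them and Omp, a marker of mature neurons, was counted in 4. Pecam1, a marker of endothelium, was counted in 92 cells at a median of 3 counts, and Gap43, a marker of young neurons, in 22 cells. Library totals ran from 29454150 to 44849003 gene counts and ERCC RNA took 1.06% to 5.75% of all counts. To compare cells, counts were divided by a size factor from the 22 ERCC transcripts counted in every cell (0.387 to 1.93), and these normalized counts are used below unless another unit is named.

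Mt1 was the leading metallothionein of the HBCs. Its normalized count was 926 in the lowest cell, 31106 in the median cell and 197154 in the highest. The lower and upper quartiles were 24602 and 47874, so most cells lay close together, and the lowest value belonged to cell 4-2. To compare genes, whose lengths differ, TPM was used, the deposited unit that is scaled for the length of a gene and for the library. Mt1 had a median of 2924 TPM, the 27th highest of the 12444 genes with a median above 0. Its TPM exceeded that of Mt2 in 96 of 96 cells and that of Mt3 in 96 of 96 cells.

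Mt2 was counted in every cell at a lower level. The normalized count was 17.2 in the lowest cell, 3767 in the median cell and 17145 in the highest, and the median TPM was 347. Cell 4-2 was again the lowest. In TPM, Mt1 exceeded Mt2 by 9.11 times in the median cell, with 3.91 times as the smallest ratio and 50.1 times, in cell 4-2, as the largest. Mt2 TPM takes no account of the overlap with Gm45774, and adding the counts of both genes raised the Mt2 median to 11883 normalized counts.

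Mt3 was counted in every cultured HBC and spanned the widest range of the family. All 96 cells had at least 7 counts, 94 had at least 10 and 93 had at least 1 TPM. Whether the lowest counts stand for transcription in those cells was not tested. The normalized count was 5.57 in the lowest cell, 4668 in the median cell and 35602 in the highest. In TPM its median was 386, and it exceeded Mt2 in 54 of the 96 cells. This order rests on Mt2 TPM, which takes no account of the overlap with Gm45774. With the counts of Gm45774 added, the Mt2 median was 11883 normalized counts, a unit not scaled for length. The standard deviation over the cells on the log2(normalized count + 1) scale was 3.14 for Mt3, against 1.08 for Mt1, 1.44 for Mt2 and a median of 1.13 over the 4631 genes counted in every cell, among which Mt3 ranked 32nd. Most of the spread came from a low tail, since 11 cells had under 100 normalized counts while the lower quartile was already 985. The share of Mt3 in the summed TPM of the 4 genes ran from 0.0274% to 45.1% with a median of 10.7%, with the same limit for Mt2.

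Mt3 was high also in cells without a single count of neuron or glia markers. All of 5 neuron and glia markers (Omp, Gng13, Gap43, Sox10 and Gfap) were at 0 in 58 cells, and in these Mt3 ran from 5.57 to 28994 normalized counts with a median of 5706. The other 38 cells ran from 14.4 to 35602 with a median of 3267, and the highest summed count of the 5 markers in a cell was 2107. These ranges overlapped almost completely.

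Mt4 was at 0 in 95 of the 96 cells. The exception was cell 11-2, with 121 counts (109 normalized counts and 15.1 TPM), whose sister had 0. Mt4 was thus counted in 1.04% of the cells (exact 95% interval, 0.0264% to 5.67%, which covers the number of cells only).

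**Figure D1:**
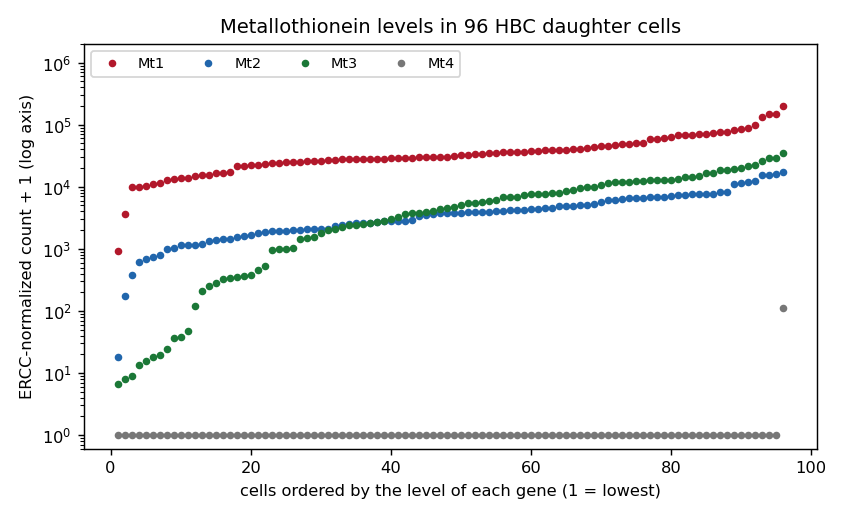
Normalized count + 1 of each metallothionein gene (log axis) in the 96 cells, with the cells ordered for each gene from its lowest to its highest. Mt1 lay between 926 and 197154, Mt2 between 17.2 and 17145, Mt3 fell to 5.57 at its low end, and Mt4 was at 0 (drawn at 1) in 95 cells.

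How alike sisters were depended on the measure, and by the share of variance Mt3 ranked first while by the ratio between sisters it ranked last. The intraclass correlation (ICC), the share of the variance of log2(normalized count + 1) that lies between pairs, was 0.818 for Mt3, 0.708 for Mt1 and 0.565 for Mt2. Over all genes passing the filter the median ICC was 0.160, and 6.90% of them reached 0.5. Over the genes counted in every cell, as these 3 genes were, the median ICC was 0.283. Mt3 ranked 6th of the 14463 genes, Mt1 73rd and Mt2 553rd. Without pair 4 the ICC was 0.825 for Mt3, 0.613 for Mt1 and 0.383 for Mt2, so the Mt2 value fell below 0.5 when that pair was left out. The ICC sets the difference between sisters against the spread between pairs, which was widest for Mt3. The median ratio of the higher to the lower sister was 1.82 for Mt3, 1.47 for Mt2 and 1.30 for Mt1.

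The sets accounted for part of this likeness. Of the summed squared deviations of Mt3 (log2 scale), 34.9% lay between the 12 sets, 55.9% between pairs within a set and 9.29% within pairs. For Mt1 the values were 35.4%, 49.7% and 14.9%, and for Mt2 28.4%, 49.5% and 22.1%. With each gene centred within its set the ICC was 0.720 for Mt3, 0.547 for Mt1 and 0.391 for Mt2. Whether the sets differ in mouse, culture or handling is not given in the sources used here, and these cannot be told apart.

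Both daughters were low in Mt3 in several pairs. In pair 2 the daughters had 5.57 and 14.4 normalized counts of Mt3. In pair 6 they had 12.3 and 6.89, in pair 8 36.0 and 23.3, and in pair 10 45.7 and 36.6. These are the 4 pairs in which both daughters were under 100. Pairs 2, 6, 8 and 10 fell in sets 1, 2 and 3, and 10 of the 11 cells under 100 were in those sets (4 in set 1, 4 in set 2 and 2 in set 3). The median of Mt3 over a set ran from 69.4 in set 1 to 9867 in set 3. Without sets 1 to 3 the ICC of Mt3 was 0.743 and its median was 5706.

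**Figure D2:**
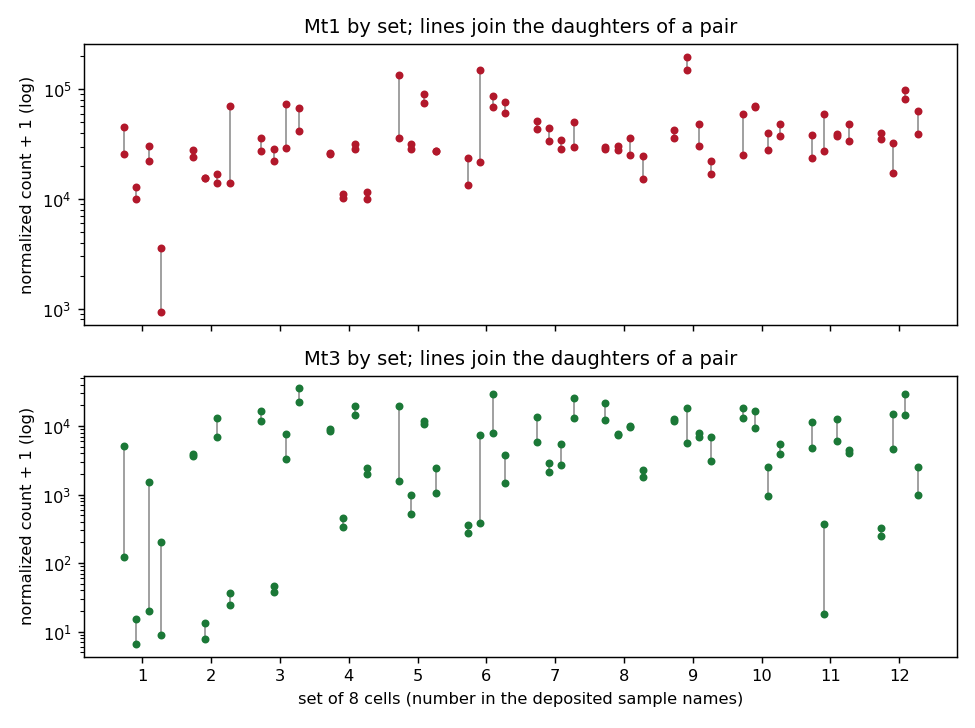
Normalized count + 1 (log axis) of Mt1 (upper panel) and Mt3 (lower panel) in each cell, by set, with a line joining the 2 daughters of a pair. Most lines are short, low Mt3 values gather in sets 1 to 3, and the lowest Mt1 values belong to pair 4 in set 1.

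The study counted a gene as asymmetric in a pair when 1 daughter had at least 1.5 times the level of the other. By this cutoff Mt1 differed in 16 of the 48 pairs (33.3%, exact 95% interval 20.4% to 48.4%), Mt2 in 23 (47.9%, 33.3% to 62.8%) and Mt3 in 29 (60.4%, 45.3% to 74.2%). Over all genes passing the filter 65.2% of the combinations of gene and pair reached the cutoff, and over the genes counted in every cell 56.4%. The Mt3 interval held both of these shares, and the Mt1 interval lay below both. The Mt2 interval held the second share and ended below the first. At a cutoff of 2 the numbers were 7 pairs for Mt1, 13 for Mt2 and 21 for Mt3. Pairs 2, 6 and 8 reached 1.5-fold for Mt3 with both daughters under 100 normalized counts. With a pseudocount of 10 in place of 1, 27 pairs reached 1.5-fold for Mt3.

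A few pairs held most of the difference between sisters. In Mt3, 6 pairs reached 10-fold or more. Pair 3 differed most, with 18.7 normalized counts in daughter 1 and 1499 in daughter 2. Pair 1 had 120 and 5175, pair 4 had 204 and 7.95, and pair 42 had 371 and 16.8. The lower quartile of Mt3 over all cells was 985. In pairs 1 and 3 only the higher daughter stood above it, and in pairs 4 and 42 neither daughter did. Together the 6 pairs 1, 3, 4, 17, 22 and 42 carried 80.1% of the summed squared difference of Mt3 between sisters.

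For Mt1 no pair reached 10-fold. The widest pairs were 22, with 21653 and 149998 normalized counts, and 8, with 13937 and 70229. Mt2 differed in the same direction in both, with 1934 and 17145 in pair 22 and 613 and 15793 in pair 8, the latter being the only Mt2 pair over 10-fold. Mt3 did not follow. In pair 22 it was higher in the other daughter (7525 and 380), and in pair 8 it was low in both (36.0 and 23.3). In pair 17, by contrast, daughter 1 was the higher cell for all 3 genes, with 133520 and 36265 for Mt1, 11257 and 1701 for Mt2 and 19390 and 1575 for Mt3.

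**Figure D3:**
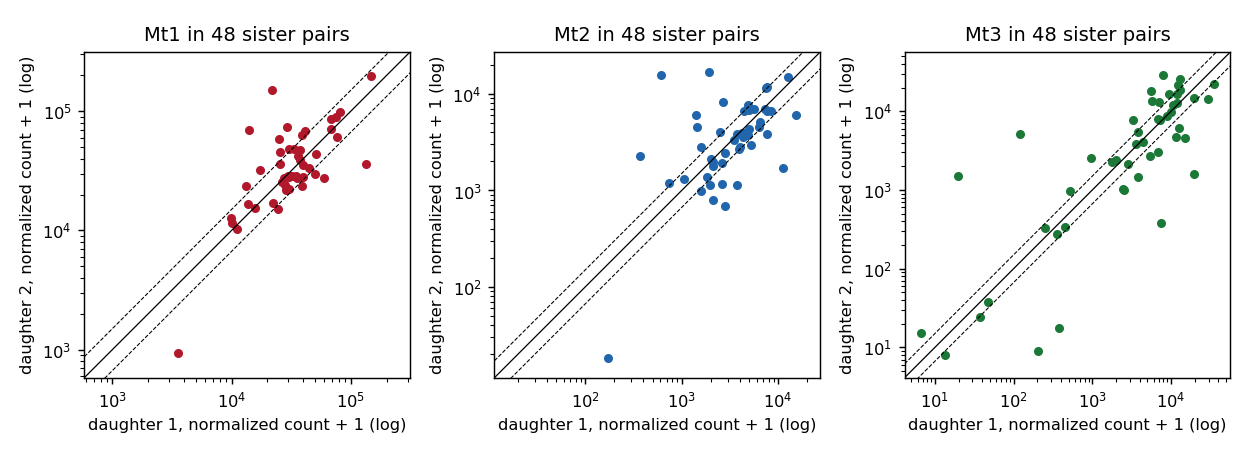
Normalized count + 1 in daughter 1 against daughter 2 (log axes) for Mt1, Mt2 and Mt3, 1 point for each of the 48 pairs. The solid line marks equal levels and the dashed lines 1.5-fold; 16 points lie on or beyond the dashed lines for Mt1, 23 for Mt2 and 29 for Mt3, and the numbering of the daughters has no meaning.

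Mt1 and Mt2 moved together over the cells, and Mt3 followed them loosely. Between Mt1 and Mt2 Spearman rho was 0.84 and Pearson r 0.88 (log2 scale, 96 cells), and without the 2 cells farthest from the Mt1 median, both of them in pair 4, rho was 0.82 and r 0.81. Between Mt1 and Mt3 rho was 0.43 and r 0.47, or 0.40 and 0.39 without the same cells. Between Mt2 and Mt3 rho was 0.38 and r 0.41, or 0.34 and 0.31 without the 2 cells farthest from the Mt2 median. All points share the ERCC scaling, and sister cells share a pair and a set. With library totals in place of ERCC the 3 rho values were 0.82, 0.42 and 0.33. Without sets 1 to 3 the rho of Mt1 and Mt3 was 0.31.

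The same contrast appeared within pairs. The daughter with more Mt1 also had more Mt2 in 40 of the 48 pairs (83.3%, exact 95% interval 69.8% to 92.5%), and in all 10 pairs in which both genes reached 1.5-fold. In place of 40, the number of pairs was 37 with the total of ERCC counts and 36 with library totals. It was 35 with TPM and 34 with the median of ratios over genes. For Mt1 and Mt3 the higher daughter was the same in 27 pairs (56.3%, 41.2% to 70.5%), and in 6 of the 12 pairs in which both reached 1.5-fold. For Mt2 and Mt3 it was the same in 25 pairs, and in 9 of 16. The correlation of the differences between sisters was 0.77 for Mt1 and Mt2, 0.13 for Mt1 and Mt3 and 0.11 for Mt2 and Mt3, or 0.74, 0.02 and -0.01 without pair 4. The means of the pairs gave rho of 0.86, 0.45 and 0.41, so Mt3 ran with the other 2 genes between pairs more than between the daughters of a pair.

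**Figure D4:**
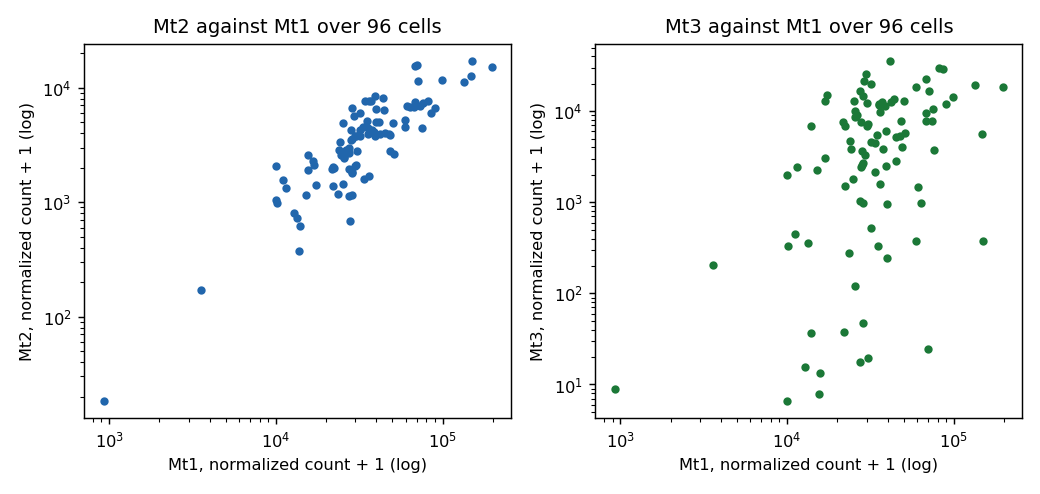
Mt2 (left) and Mt3 (right) against Mt1, as normalized count + 1 on log axes, 1 point for each of the 96 cells. Mt2 rises along a narrow band with Mt1 (rho 0.84), whereas cells with the same Mt1 level differ by orders of magnitude in Mt3 (rho 0.43); the points farthest to the left are the daughters of pair 4.

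Levels were also set beside measures of the whole cell. The gene counts of a cell divided by its size factor, a measure of its RNA, had a rho of 0.30 with Mt1, 0.25 with Mt2 and 0.17 with Mt3. For the differences between sisters the correlations were 0.23, 0.28 and 0.35, or 0.13, 0.19 and 0.26 without pair 4. For the number of genes detected rho was 0.32, 0.28 and 0.25, and for the mitochondrial share of counts -0.18, -0.13 and -0.13. Larger amounts of RNA in a cell and more transcription of these genes were not separated further. Correlations of differences between sisters were computed with ERCC scaling only.

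Genes next to the family had lower rho values with it. Within 250 kb on either side, Nudt21, Ogfod1, Nup93 and Herpud1 had rho between 0.12 and 0.29 with the mean log2 level of Mt1 and Mt2, and between -0.03 and 0.11 with Mt3. Bbs2, a component of the primary cilium machinery that lies next to Mt4, had 0.34 and 0.42, but its median count was 0.

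Genes most like Mt1 and Mt2 were sought among the 14459 other genes passing the filter, by the rho of each with the mean log2 level of Mt1 and Mt2 over the 96 cells. The median rho was 0.11, 5.41% of the genes reached 0.3 and 0.0207% reached -0.3. The 10 most alike were Dynlt1f, Gm12350, Psph, Gm12657, H3f3a, Cbr3, Gm6421, H3f3a-ps2, Sec61b and Cbr1. Dynlt1f, a dynein light chain, had a rho of 0.56. Psph, the last enzyme of serine synthesis, had 0.51 and kept 0.54 with library totals. H3f3a, one of the genes for the histone H3.3, had 0.50. Cbr3 and Cbr1, carbonyl reductases, had 0.50 and 0.47, and Sec61b, part of the channel into the endoplasmic reticulum, had 0.47. Several of these values are uncertain, since Dynlt1f shared 92.7% of its 31-base words with other genes, and Gm12350, Gm12657, Gm6421 and H3f3a-ps2 shared 78.1% to 87.9%, the last 3 of them with H3f3a. With values centred within sets the 10 values ran from 0.28 (Gm12350) to 0.56 (Psph), with 0.32 for H3f3a. Under that setting 4 of the 10 genes stayed among the 10 highest.

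The lowest rho belonged to Ndn, at -0.45. Ndn encodes necdin and is imprinted, being read from the paternal copy. It was counted in 47 cells and its median was 0. Fzd4, a receptor of the WNT family, had -0.34, Gm27029 had -0.33, Spp1 (osteopontin) had -0.30 and Itga2, a collagen-binding integrin, had -0.29. Fzd4, Gm27029 and Itga2 were counted in 40, 55 and 27 cells, so these values rest on sparse counts.

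Within pairs, 6.61% of the genes had a correlation of at least 0.3 with the difference of Mt1 and Mt2 between sisters. The highest were 6820431F20Rik (0.65), Psme2b (0.61), Smarca5 (0.60), Cpne8 (0.60), Hmgb2 (0.59), Swi5 (0.59), Msmo1 (0.58), Zfhx3 (0.57), Epb41l2 (0.57) and Tomm20 (0.56). Smarca5 is the motor of ISWI chromatin remodellers, Hmgb2 a chromatin protein of proliferating cells and Tomm20 a receptor for mitochondrial import. Without pair 4 these 10 values ran from 0.49 to 0.62, and without sets 1 to 3 from 0.22 to 0.56. The lowest were Dot1l, a histone H3 methyltransferase (-0.57), Tnfrsf12a, the receptor of TWEAK (-0.50), B930095G15Rik (-0.49), Slc4a4, a bicarbonate transporter (-0.49), and Pex14, of the peroxisome (-0.49). Between sisters the 10 genes most alike over the cells had correlations from 0.07 (Cbr3) to 0.48 (H3f3a-ps2). Psph had 0.42 and H3f3a 0.43.

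Mt3 had other close genes. Of the 14459 genes, 2.29% had a rho of at least 0.3 with Mt3 over the cells, 0.0830% had -0.3 or less, and the median was 0.07. The 10 most alike were Hk1, Layn, Cbr1, Dynlt1-ps1, Tkt, Blvrb, Kazn, Gpx2, Nqo1 and Slc7a11. Hk1, the hexokinase that starts glycolysis, had the highest rho at 0.60, and it had 0.60 with library totals and 0.47 without sets 1 to 3. Tkt, transketolase of the pentose phosphate pathway, had 0.49. Cbr1 (0.51), Blvrb, a biliverdin reductase (0.49), Gpx2, a glutathione peroxidase (0.48), Nqo1, a quinone reductase (0.48), and Slc7a11, the cystine importer (0.47), act in detoxification or in redox metabolism. Layn, a hyaluronan receptor, had 0.53. Without sets 1 to 3 the 10 values ran from 0.34 to 0.52, and Blvrb became the highest of all genes. With values centred within sets the 10 values ran from 0.31 (Nqo1) to 0.56 (Hk1), and 4 of the 10 genes stayed among the 10 highest. Dynlt1-ps1 shared all of its 31-base words with other genes.

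Ndn was again the lowest, with a rho of -0.51 to Mt3, -0.48 without pair 4 and -0.33 without sets 1 to 3. Lhfp had -0.35, Fst (follistatin, which binds activin) -0.33, Csnk1e, a casein kinase, -0.33 and Itga2 -0.33. Over the means of the pairs Ndn had -0.61, whereas the differences between sisters gave -0.01.

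Between sisters the highest correlations with Mt3 belonged to genes other than those 10. The share of genes with a within-pair correlation of at least 0.3 was 7.46%. The highest were Aldh3a1 (0.66), Slc39a10 (0.65), Gstm1 (0.64), Gm9134 (0.60), Ly6a (0.59), Kpna2 (0.58), Gm10184 (0.57), Cbr2 (0.57), Dsc3 (0.57) and Gm10259 (0.57). Aldh3a1 is an aldehyde dehydrogenase and Gstm1 a glutathione transferase, both enzymes of detoxification, while Slc39a10 imports zinc and Ly6a encodes the surface antigen Sca-1. Set 1, which holds pairs 1, 3 and 4, decided much of this, and without it Aldh3a1 had 0.55, Gstm1 0.45, Slc39a10 0.35 and Ly6a 0.20. Without pair 4 alone the 10 values ran from 0.50 to 0.66. Gm10184 and Gm10259 are near copies of Kpna2. The lowest were Commd3 (-0.55), B930094E09Rik (-0.55), Gng10 (-0.49), Arhgef2 (-0.48) and Usp33 (-0.47). The 10 genes most like Mt3 over the cells had correlations between sisters from 0.15 (Kazn) to 0.56 (Gpx2). Without set 1 these ran from -0.08 (Slc7a11) to 0.27 (Tkt).

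Next, 97 genes of 10 pathway lists were examined, of which 89 passed the filter. Of these 12 (13.5%) had a rho of at least 0.3 with Mt1 and Mt2, and 6 (6.74%) with Mt3, against the 5.41% and 2.29% of all genes given above. No listed gene reached -0.3 with either. With library totals the numbers were 4 and 5 of the 89, beside 115 and 192 of all 14459 genes.

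Over the cells 1 gene of zinc handling reached a rho of 0.3. Of the list of zinc sensing and export 7 genes of 11 passed, and 0 reached 0.3 with Mt1 and Mt2 or with Mt3. Mtf1, the zinc sensor itself, had a median of 944 normalized counts and a rho of 0.05 with Mt1 and Mt2. Slc30a1, the zinc exporter known as a target of MTF1, was counted in 60 cells and had -0.01. In the list of zinc importers 11 of 14 passed and 1 reached 0.3, Slc39a1, with a rho of 0.38 that fell to 0.24 with library totals. Its differences between sisters correlated with those of Mt1 and Mt2 at 0.43, or 0.38 without pair 4. Between sisters 2 of the 11 importers reached 0.3 with Mt3. These were Slc39a10 (0.65, or 0.60 without pair 4 and 0.35 without set 1) and Slc39a13, a zinc transporter of the Golgi (0.41, or 0.44 without pair 4). Slc30a5, of the export list, had 0.31, or 0.21 without pair 4.

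Of the 9 genes of copper handling all passed, and 1 reached 0.3 with Mt1 and Mt2. This was Sod1, the copper-zinc superoxide dismutase, at 0.41, or 0.24 with library totals. Its rho with Mt3 was 0.29. Atox1, the copper chaperone, had 0.25 and 0.26, and Slc31a1, the copper importer, 0.24 and 0.19.

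The NRF2 list holds antioxidant genes. All 12 genes passed, 5 reached 0.3 with Mt1 and Mt2 (median 0.29), and 5 reached it with Mt3 (median 0.28). For Mt1 and Mt2 these were Gsr (0.42), Nfe2l2, the gene of NRF2 itself (0.36), Gclm (0.36), Slc7a11 (0.34) and Gclc (0.32). For Mt3 they were Nqo1 (0.48), Slc7a11 (0.47), Gclm (0.45), G6pdx (0.40) and Gclc (0.38). Gclc and Gclm form the enzyme that starts glutathione synthesis, and Gsr restores glutathione. With library totals 4 genes reached 0.3 with Mt1 and Mt2 (median 0.22) and 5 with Mt3 (median 0.25), beside medians over all genes of 0.02 and 0.01. With values centred within sets the numbers were 2 and 3. The mean log2 level of the list had a rho of 0.47 with Mt1, 0.44 with Mt2 and 0.47 with Mt3 over the cells, and correlations of 0.15, 0.17 and 0.26 for the differences between sisters. Hmox1, heme oxygenase, had 0.23 and 0.20.

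Of the 8 cycling genes 4 reached 0.3 with Mt1 and Mt2 (Top2a 0.34, Aurka 0.32, Cdk1 0.32 and Mki67 0.30), and the median was 0.30. Without pair 4 the median was 0.26 and 0 genes reached 0.3, the values of these 4 being 0.30, 0.29, 0.28 and 0.26. With values centred within sets the median was 0.21, and with library totals it was 0.11, beside 0.02 over all genes, and 0 genes reached 0.3 in either. The mean log2 level of the list had a rho of 0.34 with Mt1, 0.24 with Mt2 and 0.16 with Mt3, or 0.30, 0.20 and 0.12 without pair 4. With Mt3 0 of 8 genes reached 0.3.

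The remaining lists held few such genes. Of 8 glucocorticoid response genes 1 reached 0.3 with Mt1 and Mt2, Fkbp5 at 0.31, a chaperone partner of the glucocorticoid receptor, and its differences between sisters correlated with those of Mt3 at 0.56, or 0.53 without pair 4. Of 9 heat shock genes 0 reached it with Mt1 and Mt2 and 1 with Mt3, Hsph1 at 0.32. Of 8 hypoxia genes and of 8 basal cell genes 0 reached it with either. The squamous list had 9 of 10 genes passing and 0 at 0.3, and the medians were 0.05 for Mt1 and Mt2 and 0.09 for Mt3. Between sisters 4 of the 8 basal cell genes had a correlation of at least 0.3 with Mt3 (Itga6 0.42, Itgb4 0.38, Krt14 0.33 and Krt5 0.30), but this rested on pair 4, and without it they had 0.26, 0.18, 0.10 and 0.11, and 0 of 8 reached 0.3. Of the 9 heat shock genes 4 reached it between sisters with Mt3. These were Hspa8 (0.47), Bag3 (0.37), Hsf1 (0.36) and Hsp90aa1 (0.33), and without pair 4 they had 0.45, 0.37, 0.35 and 0.16.

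**Figure D5:**
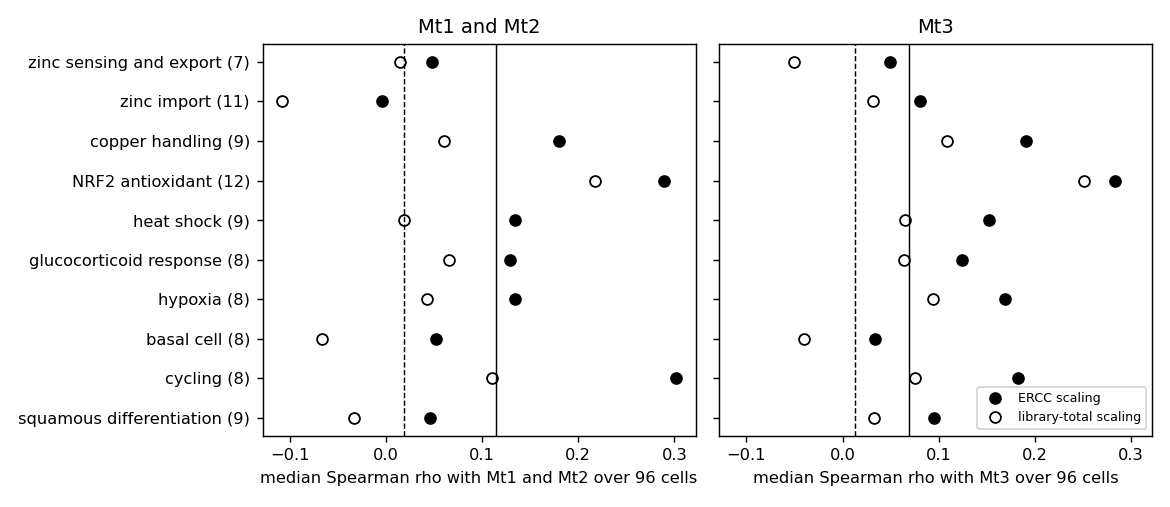
Median Spearman rho over the 96 cells of the genes of each list with the mean log2 level of Mt1 and Mt2 (left) and with Mt3 (right), with the number of genes passing the filter in parentheses. Filled points use ERCC scaling and open points library totals. Solid and dashed lines mark the medians over all genes under each (0.11 and 0.02 on the left, 0.07 and 0.01 on the right). In both panels the NRF2, cycling, copper handling, glucocorticoid response and hypoxia lists lie to the right of the lines under both scalings. The NRF2 list lies farthest right under library totals.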

How the data were processed

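RNA of 96 single daughter cells was measured by the G&T-seq protocol. Per the study's methods, the authors trimmed reads with Trimmomatic (0.39), aligned them to GRCm38 with STAR (2.7.11a) and quantified genes with StringTie (2.2.1). The authors deposited a table of counts per gene and, for each cell, TPM and coverage. Counts are not single reads: in 100% of 8832 ERCC values the deposited count equalled coverage times transcript length divided by 75, within 1, so 1 count stands for 75 aligned bases. Whether counting used strand is not given in the sources used here. The members and the gene lists were chosen with earlier results of these data known, and the settings for Mt3, for Gm45774, for pair 4 and for sets 1 to 3 after the data had been seen.

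Counts were divided by size factors (median of ratios over 22 ERCC transcripts) and analysed as log2(normalized count + 1). Genes with at least 10 counts in at least 10% of cells were kept. ICC (one-way, 48 pairs), Spearman rho and uncentred correlations of differences between sisters were computed with Python 3.11.15, numpy 2.4.6, pandas 2.3.3 and scipy 1.17.1, and were tested on simulated data. Confidence intervals are exact (Clopper-Pearson, 95%) and cover counting only. Named genes were the 4 members, the listed genes, and the 10 highest and 5 lowest by rho over cells and by correlation within pairs, with Mt1 and Mt2 and with Mt3. No 2 libraries were near copies of each other (highest Pearson r of log2 counts, 0.73). Coordinates follow the deposited files and GENCODE M21, and upstream sequences are from RefSeq. Values of 2 genes are not reported here.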

Additional observations from a re-analysis of the deposited data

How the results depend on the processing

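Of 221 recomputed values 197 moved by less than the spread set for them, 23 moved and 1 changed sign. The spread was the standard deviation over the cells for a median and the exact interval for a number of pairs or cells. It was 0.1 for a correlation and 1.5-fold for a number of genes. That standard deviation was 31884 for Mt1 and 7613 for Mt3, above their medians, so these medians could hardly be called moved. A pseudocount of 10 cannot change a Spearman rho or which sister is higher. Adding the counts of Gm45774 raised the Mt2 median from 3767 to 11883 normalized counts. A cutoff of 2 in place of 1.5 left 7 pairs for Mt1, 13 for Mt2 and 21 for Mt3, as a stricter cutoff must give fewer. With values centred within each set the ICC fell to 0.547 for Mt1 and 0.391 for Mt2. Without pair 4 the ICC of Mt2 was 0.383 and 7 listed genes in place of 12 reached a rho of 0.3 with Mt1 and Mt2. Without it the correlation of differences between sisters was 0.0157 for Mt1 and Mt3 and -0.0103, from 0.11, for Mt2 and Mt3, and 10 listed genes in place of 18 reached 0.3 with Mt3 between sisters. Without sets 1 to 3 the rho of Mt1 and Mt3 was 0.31. The number of genes with a rho of at least 0.3 with Mt1 and Mt2 fell from 782 to 115 with library totals, 96 with TPM and 155 with values centred within sets, and that of listed genes from 12 to 4, 3 and 3. For Mt3 it fell from 331 to 192 with library totals, to 203 with TPM and to 182 among genes counted in every cell, where fewer genes were examined. The cause of the other changes was not tested.

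Leaving out each set in turn, the ICC ran from 0.593 to 0.757 for Mt1, from 0.370 (without set 1) to 0.676 (without set 2) for Mt2 and from 0.766 to 0.874 for Mt3. Medians ran from 30073 to 33549 for Mt1, 3551 to 3879 for Mt2 and 3967 to 5544 for Mt3, the rho of Mt1 and Mt2 from 0.81 to 0.85, that of Mt1 and Mt3 from 0.35 to 0.47, and the pairs with the same higher cell for Mt1 and Mt2 from 36 to 38 of 44.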
